A study of Drosophila melanogaster with 3 samples.

Results

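The microRNA genes of Drosophila melanogaster were examined for binding of the homeodomain protein Mirror in whole embryos. The members were the 260 hairpin genes on the 6 main chromosome arms whose transcripts the Ensembl annotation classes as pre_miRNA, out of 262 such genes in all, of which 2 lay off these arms. The gene-level class of the same name, by which they were to be chosen, was carried by 0 genes in the annotation release used, so the transcript-level class took its place. For each hairpin, the 6201 summits of the reproducible peak list and the summits of the 3 replicate lists were looked up within 2000 bp to either side. Within that distance 49 of the 260 hairpins (18.8%) had a reproducible summit, against 13.5% of positions spaced every 1 kb along the same arms and 32.9% of protein-coding transcription start sites (TSSs).

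A microRNA is cut from a hairpin in a longer primary transcript, first by Drosha in the nucleus and then by Dicer in the cytoplasm, and is loaded into an Argonaute protein. Bases 2 to 8 of the mature strand, the seed, pair with target mRNAs, which are then repressed. In flies many hairpins lie in introns of protein-coding genes and are made with the host transcript, whereas others have a non-coding primary transcript of their own, and neighbouring hairpins can be cut from the same transcript. Mirror (mirr) belongs to the Iroquois family of homeodomain transcription factors, known from the patterning of dorsal ectoderm and of the dorsal parts of eye and wing.

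The data were transcription factor ChIP-seq from 1 group of 3 biological replicates, embryos of both sexes aged 4 to 20 h from a mirr-GFP strain, in which mirr is fused to GFP. All 3 carried the tagged protein, there was no untagged or untreated group, and the promoter that drives the fusion is not given in the sources used here. The chromatin was sonicated (size range 200 to 800 bp), and the replicates share 1 control alignment. The free-text description of every sample calls it an input control while the title, assay and antibody fields name a ChIP, so the lists were taken for ChIP peak lists. Sequencing depth is unknown, and no value has a counting interval. Regions enriched without Mirror and regions bound by Mirror cannot be told apart. The reproducible list, here called the IDR list after the irreproducible discovery rate procedure behind it, holds the 6201 strongest regions of the pooled call, so the ranks in replicates 1, 2 and 3 are given beside the peaks at hairpins described singly: rank 1 is the strongest of a list, and each relaxed replicate list holds 30000 regions.

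The mature sequences below belong to microRNAs whose peaks, or lack of peaks, the results turn on. They were taken from the RefSeq annotation and genome, release 6, and run 5′ to 3′ with the seed in capitals. The first 5 had an IDR summit within 2000 bp and lie in non-coding primary transcripts. Those of miR-279 and miR-996 share a seed and a transcript but not a summit, and those of miR-92a and miR-92b share a seed and a host gene, with a summit at each hairpin. The last 3 come from the let-7 complex, where no replicate had a region.
bantam-3p: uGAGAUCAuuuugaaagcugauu
miR-277-3p: uAAAUGCAcuaucugguacgaca
miR-34-5p: uGGCAGUGugguuagcugguugug
miR-10-5p: aCCCUGUAgauccgaauuuguu
miR-279-3p: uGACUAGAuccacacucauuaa
miR-996-3p: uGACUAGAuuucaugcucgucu
miR-92a-3p: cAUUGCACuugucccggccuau
miR-92b-3p: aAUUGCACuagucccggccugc
let-7-5p: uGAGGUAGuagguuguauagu
miR-100-5p: aACCCGUAaauccgaacuugug
miR-125-5p: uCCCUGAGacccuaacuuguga

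Replicates gave similar counts. With the 6201 strongest regions of each replicate in place of the IDR list, 54, 50 and 49 hairpins had a summit within 2000 bp in replicates 1, 2 and 3, which is 19.6% ± 1.02 (SD, n = 3) of hairpins against 13.5% ± 0.173 of positions. Of the 49 hairpins with an IDR summit, 40 also had a summit among the strongest regions of all 3 replicates, and the other 9 among those of exactly 2. With the whole relaxed lists, 53.1%, 48.1% and 46.9% of hairpins had a summit in replicates 1, 2 and 3, against 41.7%, 42.6% and 46.5% of positions. In replicate 3 the 2 shares were close. A relaxed summit of all 3 replicates lay at 97 hairpins (37.3%), against 31.2% of positions, and 102 hairpins had none in any replicate. No test was made of these shares, since the samples form a single group, neighbouring hairpins share summits and the members were chosen with earlier results of these data known.

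**Figure D1:**
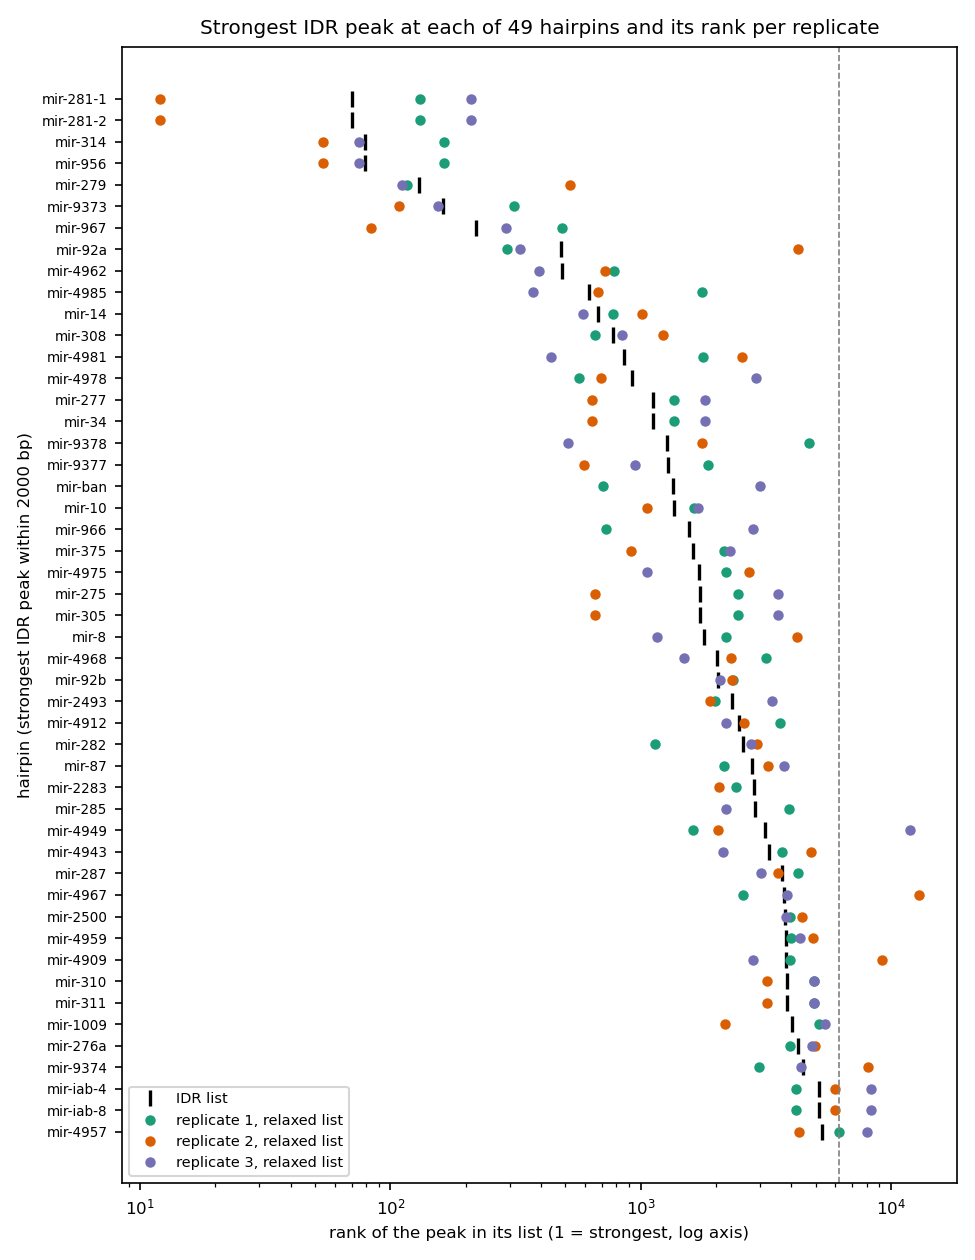
Each row is 1 of the 49 hairpins with an IDR summit within 2000 bp, ordered by the rank of the strongest such peak; the x axis is the rank in a list on a log scale, black bars mark the IDR list and coloured points the overlapping region of each replicate's relaxed list. IDR ranks run from 70 to 5281, most replicate points lie left of the dashed line at 6201, and replicate 2 has no point for mir-ban, mir-966 and mir-285 and replicate 3 none for mir-2283.

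The peaks at hairpins covered most of the range of the list. The 49 strongest ones had IDR ranks from 70 to 5281 with a median of 1728, and they were 43 distinct peaks, because neighbouring hairpins share some. Counting every summit in a window, 70 distinct summits lay at hairpins, with a median signal of 328.5 against 294.5 for all IDR summits; signal is the authors' value per peak, with no stated scale. The strongest summit lay upstream of the hairpin in 27 cases, downstream in 21 and inside it in 1. It was within 500 bp of the hairpin in 11 cases and over 1500 bp away in 15. In 19 cases it lay within 500 bp of a protein-coding TSS, and in 25 it was nearer to the hairpin than to any such TSS. Just inside the limit of 2000 bp were mir-311, mir-2500 and mir-1009, with the nearest summit at 1958, 1972 and 1974 bp; just outside were mir-9384, mir-312, mir-955, mir-313 and mir-2495, at 2104 to 2308 bp.

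Without a fixed window, hairpins lay between the other classes. The nearest IDR summit was a median of 9385 bp from a hairpin (quartiles 2846 and 22878 bp), against 16190 bp for positions and 5372 bp for protein-coding TSSs. From the strongest regions of replicates 1, 2 and 3 the hairpin medians were 7856.5, 9526 and 8824 bp (mean 8736 bp, SD 838, n = 3). The differences between the 3 classes were larger than this SD. It covers the same hairpins in each replicate, and does not measure how far medians vary between sets of hairpins or in the other classes. With 1 value per cluster the hairpin median was 8030 bp.

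**Figure D2:**
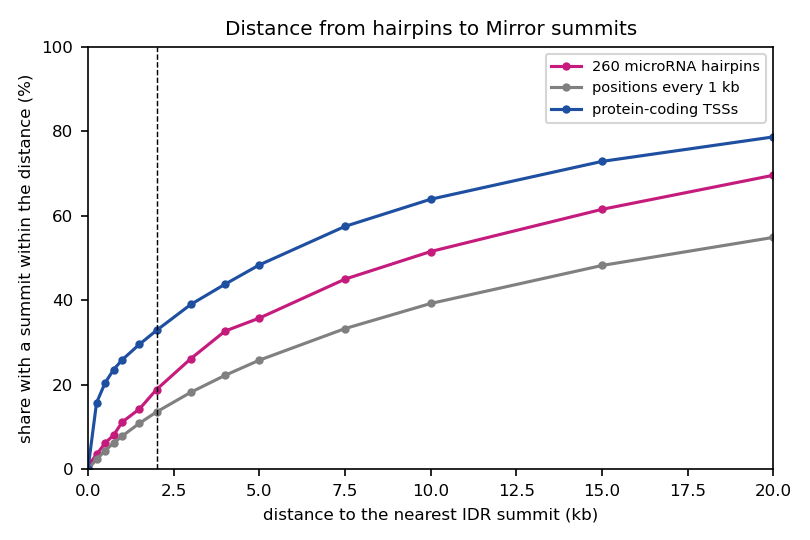
Cumulative share (y axis, percent) of 260 hairpins, of positions every 1 kb and of protein-coding TSSs that have an IDR summit within the distance on the x axis (kb). The hairpin curve runs between the other 2 at every plotted distance from 250 bp to 20 kb; the dashed line marks 2000 bp, where the shares are 18.8%, 13.5% and 32.9%.

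Closeness to a coding promoter divided the hairpins. Of the 110 hairpins within 2000 bp of a protein-coding TSS, 28 (25.5%) had an IDR summit in their window, close to the 27.4% of positions that lie as near to such a TSS. Of the 150 hairpins farther away, 21 (14%) had one, against 6.71% of positions that far from a coding TSS. In the strongest regions of the replicates the shares were 26.4% ± 1.57 for near hairpins against 27.0% ± 1.91 for near positions, and 14.7% ± 0.667 for far hairpins against 6.84% ± 0.810 for far positions (SD, n = 3). The difference for far hairpins exceeded the spread between replicates, and that for near hairpins did not. This spread is taken over the same hairpins and positions. It does not measure how far the shares vary between sets of hairpins, and neighbouring hairpins share some summits. Far positions also include long gene-poor stretches; between 2000 bp and 20 kb from a coding TSS the shares were 13.2% (18 of 136 hairpins) and 8.36%.

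By place in the annotation, hairpins inside a long non-coding RNA gene on the same strand had the highest share with an IDR summit, 12 of 46 (26.1%; replicates 28.3% ± 2.17, SD, n = 3). The share was 21 of 106 (19.8%; 19.8% ± 0.943) in introns of same-strand protein-coding genes, 5 of 30 (16.7%; 17.8% ± 1.92) in exons of such genes, 8 of 51 (15.7%; 16.3% ± 2.26) between genes and 3 of 27 (11.1%; 12.3% ± 4.28) on the opposite strand of another gene. Long non-coding genes and coding introns differed by more than their spread over replicates. Coding introns and coding exons overlapped within it, as did the 3 lower classes with each other. This spread is taken over the same hairpins and does not measure how far shares vary between sets of hairpins. Genes of small nucleolar RNAs, another class of short RNA genes that mostly lie in introns, had a summit within 2000 bp in 134 of 269 cases (49.8%; replicates 48.0% ± 5.24).

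**Figure D3:**
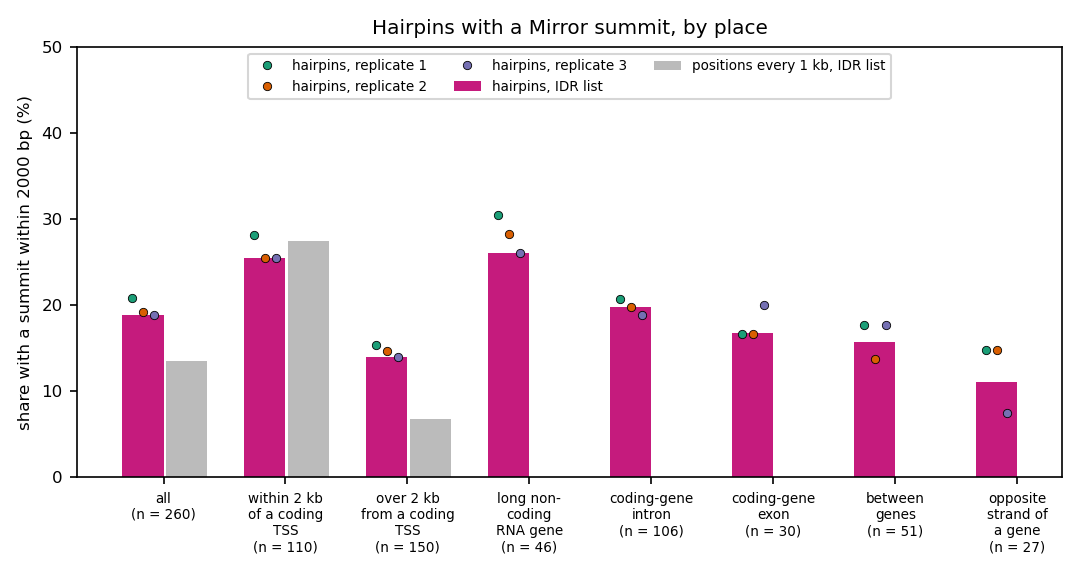
Share of hairpins (magenta bars, percent) with an IDR summit within 2000 bp, for all hairpins and by closeness to a protein-coding TSS or place in the annotation, with n below each; points give the share in the strongest regions of replicates 1, 2 and 3, and grey bars the share of positions every 1 kb under the same rule, where one was computed. Near a coding TSS the bars stand at 25.5% and 27.4%, far from it at 14% and 6.71%.

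Several microRNAs with a primary transcript of their own had peaks at its start. Of 32 non-coding host genes, 1 of them an antisense RNA gene, 11 had an IDR summit within 1000 bp of a TSS (34.4%; replicates 38.5% ± 9.02, SD, n = 3), against 12.4% of all 1944 long non-coding RNA genes and 25.1% of protein-coding genes. The host promoters named here and below had such a summit among the 6201 strongest regions of every replicate, except where a replicate is said to lack it. A host with several starts has more chances of a bound one, and bound hosts had from 1 (mir-279) to 4 (mir-276a) annotated starts. Neither starts per gene nor length was compared between non-coding hosts and all long non-coding RNA genes. In each of the 11 bound hosts a bound start lay on the upstream side of a hairpin, and together they held 13 hairpins.

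The strongest of these was at mir-279, which limits the number of carbon dioxide sensing neurons in the fly. Its peak (dm6, chr3R:29214282-29214594) lay 1137 bp upstream of the hairpin and 114 bp from the single annotated start of its host, lncRNA:CR31044. Its signal was 1083 in the pooled call and 469.9, 181 and 451 in replicates 1, 2 and 3, where it ranked 117, 520 and 111. All 3 replicates thus held it among their 1000 strongest regions, replicate 2 lowest. mir-996, which has the same seed and lies farther along the same transcript, was 2736 bp from that summit and had no IDR summit in its window, only relaxed regions ranked 23316, 24560 and 9568.

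The locus of bantam, a microRNA that promotes growth and blocks apoptosis, held many summits. In the 15 kb to each side of mir-ban lay 14 IDR summits, and 13, 10 and 18 summits of the strongest regions of replicates 1, 2 and 3, while positions every 1 kb had 1.39 IDR summits in such a span on average. The nearest summit was 19 bp from the hairpin. The strongest within 2000 bp lay 737 bp downstream, at IDR rank 1347; it ranked 707 and 3007 in replicates 1 and 3, and no region of replicate 2 overlapped it, although replicate 2 had another region in the window, at rank 1107. The host transcript lncRNA:CR43334 had a stronger peak 182 bp from one of its 3 starts, with a signal of 1029 at IDR rank 154.

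The mir-277 and mir-34 hairpins start 914 bp apart in lncRNA:CR43459. miR-277 acts on the breakdown of branched-chain amino acids, and miR-34 is tied to ageing of the fly brain. A peak 378 bp upstream of mir-277 and 1292 bp upstream of mir-34 had a signal of 490.1 and IDR rank 1118, with ranks 1359, 642 and 1809 in replicates 1, 2 and 3, and the start of the transcript itself had a weaker peak at rank 2601, 15 bp from the TSS, where replicate 3 had no summit among its strongest regions within 1000 bp. The third hairpin of this cluster, mir-317, lies upstream of that start and had no IDR summit within 2000 bp, the nearest being at 2529 bp.

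Other hairpins of this kind bear on growth and metabolism in the fly. mir-14, which represses cell death and affects fat storage, had an IDR summit 290 bp downstream at rank 676 (replicate ranks 775, 1017 and 591) and another at rank 691, 123 bp from the start of its host. mir-8, a growth regulator of the fat body, had 3 summits, the strongest at rank 1796 (2187, 4222 and 1163), and a host start with a summit at rank 2027. mir-282 had a peak at rank 2573 (1146, 2925 and 2768) and mir-276a, which acts on a dopamine receptor in olfactory memory, at rank 4246 (3964, 4961 and 4837), both at a start of the host. mir-276b had none, with the nearest summit 22026 bp away. At mir-8 replicate 2 ranked the peak lowest, and at mir-282 replicate 1 ranked it highest.

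For 4 further hairpins a host start had an IDR summit, and the hairpin itself, lying away from it, had none in its window. For mir-bft, also called mir-263a, which protects sensory bristles from apoptosis, the start of the host lies 17591 bp upstream and its summit was at rank 2055. mir-184 had a host start with a summit at rank 1879, and the neuronal mir-124 one at rank 4121, which replicate 3 lacked. mir-4951 lies in the stress-induced lncRNA:Hsromega, with a start summit at rank 1683. In the windows of the hairpins themselves, mir-184 had relaxed regions ranked 27162 and 26183 in replicates 1 and 2. For mir-124 they ranked 22014 and 18390 in replicates 2 and 3, while mir-bft and mir-4951 had none in any replicate.

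**Figure D4:**
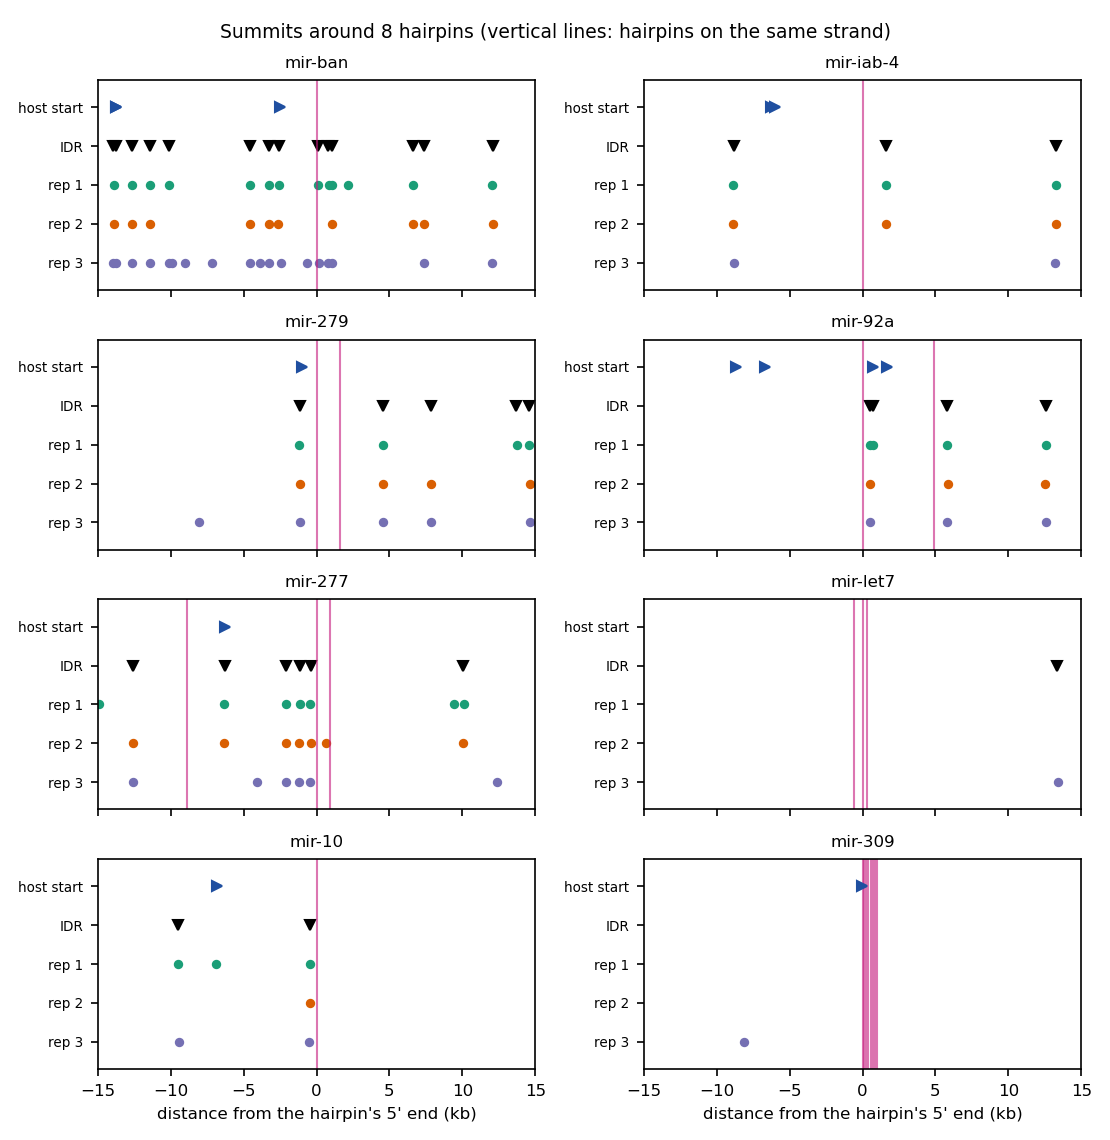
Distance from the 5′ end of 8 hairpins (x axis, kb, upstream to the left) of host TSSs (blue arrows), IDR summits (black triangles) and summits of the 6201 strongest regions of replicates 1, 2 and 3 (coloured points); vertical lines mark hairpins on the same strand. The mir-ban panel holds 14 IDR summits, mir-277 holds 6, mir-279 holds 5 and mir-92a holds 4, whereas mir-let7 has 1 at the right edge and mir-309 none.

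Of 4 hairpins in the Hox complexes, mir-10, mir-iab-4 and mir-iab-8 had a summit and mir-993 had none. mir-10, between Hox genes of the Antennapedia complex, had a peak 485 bp upstream, 18231 bp from the nearest coding TSS, that of Dfd. Its signal was 451 in the IDR list at rank 1358, and 162, 136 and 157 in replicates 1, 2 and 3 at ranks 1639, 1060 and 1696, so the replicates placed it alike. mir-iab-4 and mir-iab-8 are read from opposite strands of the same hairpin in the Bithorax complex and repress Hox genes there. They share a weak peak 1550 bp away, at IDR rank 5146 and at ranks 4185, 5956 and 8289 in replicates 1, 2 and 3, the last outside the 6201 strongest regions. It lay 27843 bp from the nearest coding TSS, that of abd-A. mir-993, in the Antennapedia complex on lncRNA:CR42721 and outside the list of Hox hairpins drawn up for this work, had its nearest IDR summit 33616 bp away and relaxed regions ranked 11435, 6724 and 20516.

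Of the hairpins in coding introns, many had a peak at the host promoter instead of their own window. The 106 hairpins lie in 95 host genes, of which 44 had an IDR summit within 1000 bp of a TSS (46.3%; replicates 44.2%, 45.3% and 34.7%), against 25.1% of all protein-coding genes. Hosts are long: their median length was 14245 bp against 2166 bp for all protein-coding genes, and they had 2.29 annotated starts per gene against 1.41. Host genes of up to 5000 bp were bound in 27.6% of cases against 20.4% of all genes that short, hosts of over 5000 and up to 20000 bp in 55.2% against 37.9%, and longer hosts in 54.1% against 42.1%. The host share was thus above that of all genes, hosts included, in each length class, with 29, 29 and 37 hosts. In the shortest class it rests on 8 bound hosts, and shares by length were not taken per replicate. Per start, 34.9% of host TSSs and 25.9% of all coding TSSs had a summit within 1000 bp.

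A bound host start was found for 50 of the 106 hairpins, and 31 of these had no IDR summit in their own window. For 44 hairpins a bound start lay upstream of the hairpin, on the side from which it would be transcribed. Strong promoter peaks without an IDR summit in the hairpin's window were found at sty, which encodes the feedback inhibitor Sprouty of EGFR and FGF signalling (mir-2282, rank 73, signal 1328). The same held for the kinase gene for (mir-4972, rank 297), MRP (mir-9382, rank 508) and PAPLA1 (mir-4984, rank 558). In the order sty, for, MRP and PAPLA1, these summits lay 568, 354, 981 and 83 bp from a host start. That at MRP was just inside the limit of 1000 bp. At for the bound start of rank 297 lay downstream of the hairpin, and the upstream one had a summit at rank 2772. The window of mir-2282 did hold relaxed regions, ranked 5347, 3813 and 16332 in replicates 1, 2 and 3. Those of replicates 1 and 2 were among the strongest regions, and a replicate 2 summit lay inside the hairpin. mir-4972, mir-9382 and mir-4984 had no relaxed region in any replicate.

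Among hairpins with a summit in their own window, the strongest were mir-281-1 and mir-281-2 in an intron of Oda, which encodes an inhibitor of ornithine decarboxylase. The peak lay 1780 and 1560 bp downstream of them and 105 bp from an Oda start, with a signal of 1344, IDR rank 70 and ranks 131, 12 and 210 in replicates 1, 2 and 3. This start lies downstream of both hairpins, and no start upstream of them was bound. The same held for mir-92a in jigr1: its peak, at IDR rank 482, was 404 bp downstream and 242 bp from an internal start of jigr1 that also lies beyond the hairpin. It ranked 293 and 330 in replicates 1 and 3 but 4253 in replicate 2. mir-92b, in an exon of the same gene, had a peak 792 bp downstream at rank 2032, with ranks 2339, 2326 and 2078. miR-92a and miR-92b act in the self-renewal of fly neuroblasts.

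The next intronic hairpins by rank were mir-9373 in CG6231 (rank 162; 311, 108 and 155 in replicates 1, 2 and 3), mir-967 in bun (219; 485, 84 and 290), mir-4962 in Tlk (485; 783, 719 and 394) and mir-4985 in Fatp3 (623; 1764, 673 and 371). At mir-4962 alone did the strongest summit of a window fall inside the hairpin. mir-9373 also had an IDR summit inside the hairpin, a weaker one at rank 2896. Tlk encodes a chromatin-associated kinase, bun a TSC22-family protein and Fatp3 a fatty acid transport protein. mir-308, in an intron of the ribosomal protein gene RpS23, had 4 IDR summits, the most of any hairpin, and the strongest lay 6 bp from the RpS23 start at rank 778 (655, 1228 and 844). It was followed by mir-9378 in CG17124 (rank 1277; 4709, 1754 and 511), mir-9377 in Tis11 (1282; 1862, 595 and 946) and mir-4975 in CG45092 (1710; 2199, 2710 and 1061). mir-966 in Pfas had a peak at rank 1556, with ranks 724 and 2811 in replicates 1 and 3 and no overlapping region in replicate 2. Apart from mir-4962, mir-9378 and mir-9377, these peaks lay within 1000 bp of a coding TSS.

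A few strong peaks lay outside host introns. mir-314 and mir-956, on opposite strands between genes, shared a peak 221 bp upstream of the first and 940 bp downstream of the second, 634 bp from the start of Muc68D, with a signal of 1286. It ranked 79 in the IDR list and 164, 54 and 75 in replicates 1, 2 and 3. mir-4981 had a peak at rank 861 (1773, 2552 and 437), mir-4978, antisense to an intron of the Notch coactivator gene mam, at rank 924 (566, 696 and 2902), and mir-375 at rank 1616 (2158, 916 and 2277). mir-275 and mir-305 shared a peak at rank 1728, which lay 93 bp from the start of muc and ranked 2450, 660 and 3544 in the replicates. mir-287 had a summit 16 bp upstream, 14590 bp from any coding TSS, at rank 3656 and at similar ranks of 4238, 3550 and 3015 in the replicates.

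Most of the 5 largest clusters had no summit, as was so for most places of any size. Hairpins on the same strand less than 10 kb apart formed 22 clusters with 79 hairpins, and 181 hairpins stood alone. Counting each cluster or lone hairpin as a place, 44 of 203 places (21.7%) had a summit. Of the clusters, 7 had a summit at 1 or more hairpins (31.8%) and 3 at every hairpin, those of mir-281-1 and mir-281-2, of mir-92a and mir-92b, and of mir-275 and mir-305. Of the lone hairpins 37 had one (20.4%), a lower share than that of clusters. A cluster, with several hairpins, has more windows that can hold a summit. The 12 hairpins of the mir-972 to mir-979 cluster on X had no relaxed summit in any replicate, and their nearest IDR summit was at least 28909 bp away. The same was found for the 8 hairpins from mir-309 to mir-6 on 2R (21285 bp) and for the 5 of the mir-982 to mir-984 cluster on X (40824 bp). The 6 hairpins from mir-959 to mir-964 on 2L had no IDR summit within 16383 bp but shared a relaxed region at ranks 14740, 8761 and 13501 in replicates 1, 2 and 3. Of the 7 hairpins from mir-310 to mir-992 on 2R, mir-310 and mir-311 had a shared summit at rank 3856 (4950, 3204 and 4918), 213 bp from the start of qsm.

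Hairpins with the same seed differed in whether they had a summit. Of 8 seeds held by 3 or more hairpins, 4 had a summit at any of them. Of all hairpins 18.8% had an IDR summit, so a count of 0 or 1 among 3 hairpins does not set a seed apart. Of the 8 seeds, AUUGAAG and GUAUUUU belong to the same 3 hairpins, those of mir-10404. The K box seed AUCACAG, which pairs with the K box motif in Notch target genes, is held by 14 hairpins in 7 places, and mir-308 alone had an IDR summit. The seed AUUGCAC of the mir-92 and mir-310 groups is held by 6 hairpins, of which 4 had one (mir-92a, mir-92b, mir-310 and mir-311), in 2 places. For AGCACCA, mir-285 had a peak at rank 2863 that replicate 2 lacked (3924 and 2201 in replicates 1 and 3), and mir-995 and mir-998 had none. For GACUAGA, mir-279 had one and mir-286 and mir-996 had none.

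Counts by functional group were uneven too. For growth, apoptosis and metabolism 8 of 14 hairpins had an IDR summit, against 18.8% of all hairpins and 13.5% of positions. The count was 3 of 3 for the listed Hox-complex hairpins, without mir-993, and 1 of 1 for bantam. Some of these hairpins share their strongest peak: mir-275 with mir-305, mir-277 with mir-34, and mir-iab-4 with mir-iab-8. They are thus not separate cases, and a single hairpin gives no share. The members of the growth, apoptosis and metabolism group without an IDR summit were mir-278, mir-317, mir-276b, mir-bft, mir-263b and mir-33. The last lies in SREBP, a regulator of lipid synthesis, whose promoter was bound at rank 3009. In the neural group 1 of 6 had a summit, mir-279, which is close to the share of all hairpins. mir-190 had none within 9088 bp but lies in the talin gene rhea, with a bound promoter at rank 2864, and mir-137 had neither. For the K box family the count was 1 of 13, with several of these hairpins in shared places. mir-2a-1, mir-2a-2 and mir-2b-2 lie in the gene of the EGFR ligand spi, whose promoter was bound at rank 1342, and mir-11 and mir-998 in the cell cycle gene E2f1, bound 1 bp from a start at rank 2610, with no such summit in replicate 3. mir-2b-1 lies in Btk, bound at rank 3402. mir-13a, mir-13b-1 and mir-2c shared a relaxed region ranked 9078, 7487 and 9692, and mir-13b-2 had relaxed regions in replicates 1 and 2 only.

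Groups with 0 IDR summits were the let-7 complex, the Brd box and mir-9 family, mir-7, mir-1, the mir-309 to mir-6 cluster and the testis-enriched clusters. Of all hairpins 18.8% had one. mir-7 and mir-1 are single hairpins, and the let-7 complex and the mir-309 to mir-6 cluster are 1 place each. A count of 0 therefore does not set these apart. The 3 hairpins of the let-7 complex, which acts at metamorphosis under ecdysone, had no relaxed region in any replicate, with the nearest IDR summit at 12947 to 13838 bp. Nor had the 8 hairpins of the mir-309 to mir-6 cluster, which is switched on in the earliest zygotic transcription and clears maternal mRNAs. mir-1, the muscle microRNA, had relaxed regions ranked 24828 and 21894 in replicates 1 and 2 and an IDR summit no nearer than 52128 bp. mir-7, in HnRNP-K, which acts in photoreceptor and sense organ formation, had relaxed regions ranked 28362 and 14245 in replicates 1 and 3. In the mir-9 group, mir-9a, which makes sense organ formation robust, had relaxed regions of all 3 replicates, the best at rank 6523, whereas mir-4, mir-79, mir-9b and mir-9c had none. Of 21 testis-enriched hairpins, 6 had relaxed regions of all 3 replicates, those of the mir-959 to mir-964 cluster. mir-991 had none, and mir-992 had regions in replicates 1 and 3.

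Arms differed. On X, 4 of 58 hairpins (6.90%) had an IDR summit, against 11.4% of positions there, and every replicate gave 4. Among the 58 are the 12 hairpins of the mir-972 to mir-979 cluster and the 5 of the mir-982 to mir-984 cluster, all without one. Hairpins of a cluster are not independent, and shares per place were not computed by arm, so the lower share on X may rest on these clusters. On the other large arms the hairpin share was above that of positions: 19.6% against 14.5% on 2L, 25.5% against 14.7% on 2R, 25.8% against 13.8% on 3L and 20.7% against 13.7% on 3R. The 2 hairpins on 4 had none. The embryos were of both sexes, so X and autosomes could differ in copy number; its part in this was not tested. No hairpin lay within 200 kb of mirr, whose region a transgene could duplicate; the nearest, mir-285, was 747448 bp away.

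Sequence letters around the 70 summits at hairpins were counted within 100 bp on both strands. ACANNTGT, the palindrome that Iroquois proteins bind in vitro, was found at 3 of 70 summits (4.29%), against 13.4% of all 6201. These were summits at mir-9378, mir-966 and mir-9373, the first at IDR rank 1277. The GATA factor sequence (AGATAAG or TGATAAG) was found at 17 (24.3%, against 20.1%), the GAGA sequence GAGAG at 24 (34.3%, against 30.6%) and the promoter element DRE (TATCGATA) at 0 (against 2.52%). A match is a description of the letters only. Each sequence was searched on its own, and a summit was counted once for it.

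The windows of 50 bp to each side of 3 summits are shown because they hold a match close to the strongest summit of a hairpin named above. They are from the plus strand of release 6 (dm6), at chr3L:11772741-11772841 for mir-314 and mir-956, chr3R:6810017-6810117 for mir-10 and chr2L:10752061-10752161 for mir-9378. Capitals mark the GATA sequence in the first and second and the Iroquois palindrome in the last.
mir-314 and mir-956 summit: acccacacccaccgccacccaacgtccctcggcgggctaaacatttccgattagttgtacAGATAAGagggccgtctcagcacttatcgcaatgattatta
mir-10 summit: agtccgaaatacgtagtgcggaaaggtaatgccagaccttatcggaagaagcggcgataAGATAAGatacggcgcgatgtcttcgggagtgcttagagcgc
mir-9378 summit: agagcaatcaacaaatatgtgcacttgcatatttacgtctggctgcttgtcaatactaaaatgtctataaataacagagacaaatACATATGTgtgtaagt
The GATA match began 10 bp from the summit at mir-314 and 9 bp from it at mir-10, and the palindrome 35 bp from the summit at mir-9378.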

How the data were processed

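Values are the signal column of the peak lists deposited by the authors. Its scale is not stated, and it served only to order peaks inside a list and to describe them. Per the labels and the file headers, reads were aligned to dm6, peaks were called per replicate and on the pooled alignments, against 1 shared control, and an IDR list was derived. The aligner, caller and depth are not given in the sources used here.

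Hairpins, hosts and TSSs came from Ensembl 115 (BDGP6.54), with the arms of dm6. All 260 hairpins had the same start and end in RefSeq release 6, which gave 481 mature sequences. Distances run from hairpin to summit. A promoter was called bound with an IDR summit within 1000 bp of a TSS. Replicate spread is mean ± SD over the 6201 strongest regions of each replicate list; it measures these 3 samples only.

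Members, lists and the rule for named hairpins (all members of 11 lists, the 25 hairpins with the strongest summits, the 5 largest clusters) were chosen with earlier results of these data known. Closeness to TSSs, arms, host length, seeds, upstream host starts, non-coding hosts, the mapped loci and the snoRNA comparison were added after values were seen. mir-263a was matched as mir-bft by its RefSeq synonym. Python 3.11.15, numpy 2.4.6 and matplotlib 3.10.9 were used, and the calculations were checked on simulated data. Alternatives were window, peak list, promoter distance, cluster gap, counting unit and leaving out each replicate.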

Additional observations from a re-analysis of the deposited data

How the results depend on the processing

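Of 30 alternatives, 21 stayed near the value reported, which means within 1.5 times for a count and within 1 SD of the replicates for the median distance and the percentage. The values given for leaving out a replicate are means over the strongest regions of the remaining replicates, so the peak list changed with them, except for the relaxed lists. The count of 49 hairpins with an IDR summit within 2000 bp moved to 29 at 1000 bp, 93 at 5000 bp and 31 with upstream summits only; it was 51 by peak interval, 34 with the stronger 3100 peaks and 49.5 to 52 without a replicate. The count of 97 with a relaxed summit of all 3 replicates moved to 62 at 1000 bp, 36 at 500 bp and 40 in the strongest regions, and was 102 to 115 over both remaining relaxed lists. Places with a summit numbered 45 of 208 with a gap of 3 kb and 44.5 to 47 without a replicate. Of hairpins in coding introns, 45 had a bound host promoter within 500 bp, 44 counting upstream starts only, an alternative chosen after seeing the data, and 43.5 to 51 without a replicate. The median distance moved to 8030 bp with 1 value per cluster and was 8340 to 9175 bp without a replicate. Among hairpins far from a coding TSS, 13.2% had a summit when those over 20 kb away were left out, also chosen after seeing the data. Depth is unknown, so a missing region does not show absence of binding, and a window of 2000 bp cannot tie a summit to a hairpin.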
